A study of Mus musculus with 12 samples.

Results

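The genes that encode the proteasome were followed through 12 libraries of cells sorted from the mouse dentate gyrus. They were taken by symbol, as protein-coding genes named Psma to Psmg with a number, and 50 of the 50600 genes in the count table met this rule. A further 4 rows with such symbols are pseudogenes and were left out. By the role of the protein, the 50 genes comprise 8 of the 20S alpha ring, 7 constitutive genes of the 20S beta ring, 4 inducible or tissue-restricted beta genes, 6 ATPases, 3 other subunits of the 19S base, 8 subunits of the 19S lid, 7 assembly chaperones and 6 activators or inhibitors. The remaining gene, Psmc3ip, fits the rule by name only, since it encodes a partner of a recombinase in meiosis. The 31 constitutive subunits, which leave out the testis gene Psma8, are called core subunits below.

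The proteasome degrades proteins that carry ubiquitin chains. Its barrel, the 20S core, has outer rings of alpha subunits that gate the entry and inner rings of beta subunits, of which Psmb5, Psmb6 and Psmb7 encode the constitutive proteolytic sites. The 19S cap binds the substrate, removes ubiquitin and uses its ATPases to thread the unfolded chain into the barrel. Because every particle contains each subunit in a fixed ratio, the genes are commonly transcribed together, under factors such as Nfe2l1. Interferon induces Psmb8, Psmb9 and Psmb10, whose products replace the constitutive sites in the immunoproteasome, and in neural stem cells proteasome activity has been linked to the clearance of protein aggregates.

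All libraries came from adult Nestin-GFP mice of 6 to 9 weeks, in which regulatory sequence of the nestin gene drives green fluorescent protein (GFP) in stem cells and progenitors. Cells that carried CD31, CD45, O1 or O4, markers of endothelial, microglial and oligodendroglial cells, were gated out. Stem cells were then sorted as positive for GFP and for the glutamate transporter GLAST, progenitors as positive for GFP without GLAST, and astrocytes as positive for GLAST without GFP, with 4 libraries of 50 cells for each cell type and no other treatment. Astrocyte and progenitor libraries carry the letters a to d and stem cell libraries the numbers 1 to 4, and a letter pairs nothing across cell types.

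Total counts were 5357232 to 6253680 in astrocytes, 9041498 to 12535028 in progenitors and 5031166 to 10435711 in stem cells, and the number of genes with at least 10 counts was 9430 to 11655, 16389 to 17015 and 13368 to 14175. Levels are given as CPM, counts scaled by the library's total and TMM factor. Summed CPM of 10 astrocyte markers was 16100 to 20100 in astrocytes, 6690 to 9040 in progenitors and 20800 to 26200 in stem cells. Summed CPM of 10 stem cell markers was 1190 to 1660 in stem cells, 643 to 984 in progenitors and 528 to 1040 in astrocytes. Summed CPM of 10 progenitor markers was 694 to 1720 in progenitors, at most 226 in astrocytes and at most 90.8 in stem cells. Of the stem cell markers, Nes, the gene behind the reporter, and Tfap2c had no count in any astrocyte library. Lpar1 and Tfap2c had none in any stem cell library. Of the progenitor markers, Eomes and Neurod4 had none in astrocytes, and Neurod4, Mki67 and Top2a had none in stem cells. The study expected Nes in stem cells and progenitors but observed it only in progenitors. Nes failed the study's coverage filter, and the authors regard a call of higher Nes in progenitors as a false finding. Here Nes was not among the markers without a count in every stem cell library. Markers of other cells differed as well. All 7 markers of oligodendrocyte precursors had at least 10 counts in every progenitor library, with a sum of 2140 to 3560 CPM against 43.5 to 321 in astrocytes and 64.3 to 145 in stem cells. The sum of 8 neuron markers was 622 to 5310 CPM in astrocytes, 463 to 589 in progenitors and 277 to 474 in stem cells. The sum of 6 mural cell markers reached 2580 CPM in progenitors, where its lowest value was 56.2. In bulk samples such as these, fewer cells of a type and less RNA per cell cannot be told apart.

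Proteasome transcripts were found in every library, but the set was less complete in astrocytes. Of the 50 genes, 48 had counts somewhere and 30 had at least 10 counts in all 12 libraries. Psma8, which replaces Psma7 in germ cells, and Psmb11, the beta subunit of thymic epithelium, had no count in any library, which allows up to 3 counts, or 0.206 to 0.639 CPM per library. Psmb8 and Psmb9 were the other genes with fewer than 10 counts in most libraries. The 4 astrocyte libraries had at least 10 counts for 35, 43, 37 and 42 of the 50 genes, against 47 or 48 in each progenitor library and 46 or 47 in each stem cell library. The mean number was 39.2 ± 3.86 (SD, n = 4) in astrocytes, 47.5 ± 0.577 in progenitors and 46.2 ± 0.5 in stem cells. The difference of -8.25 genes between astrocytes and progenitors had p = 0.029 in a two-sided exact permutation test, as did the difference of -7.0 between astrocytes and stem cells (adjusted p = 0.043 over 3 comparisons for each). A p of 0.029 is the smallest that 4 against 4 libraries allow. Progenitors and stem cells differed by 1.25 genes (exact permutation p = 0.086, adjusted p = 0.086). Thinning all libraries to the smallest total gave -8.5, -7.25 and 1.25 genes. Fewer genes of any kind reached 10 counts in astrocytes, as given above, and the study describes the cDNA quality of its astrocytes as suboptimal.

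The 31 core subunits took the largest and the most even share of counts in progenitors. They made up 0.535%, 0.557%, 0.54% and 0.556% of all counts in the 4 progenitor libraries, with a mean of 0.547% ± 0.0112 (SD, n = 4). In stem cells the share was 0.399%, 0.367%, 0.406% and 0.346%, with a mean of 0.38% ± 0.0281. In astrocytes it was 0.347%, 0.273%, 0.21% and 0.333%, with a mean of 0.291% ± 0.0627. Every progenitor library thus lay above every other library, whereas astrocytes and stem cells overlapped by their nearest libraries. These shares are of unscaled counts. After TMM scaling the median core subunit had a mean of 148 CPM in progenitors, 119 CPM in stem cells and 93.4 CPM in astrocytes.

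**Figure D1:**
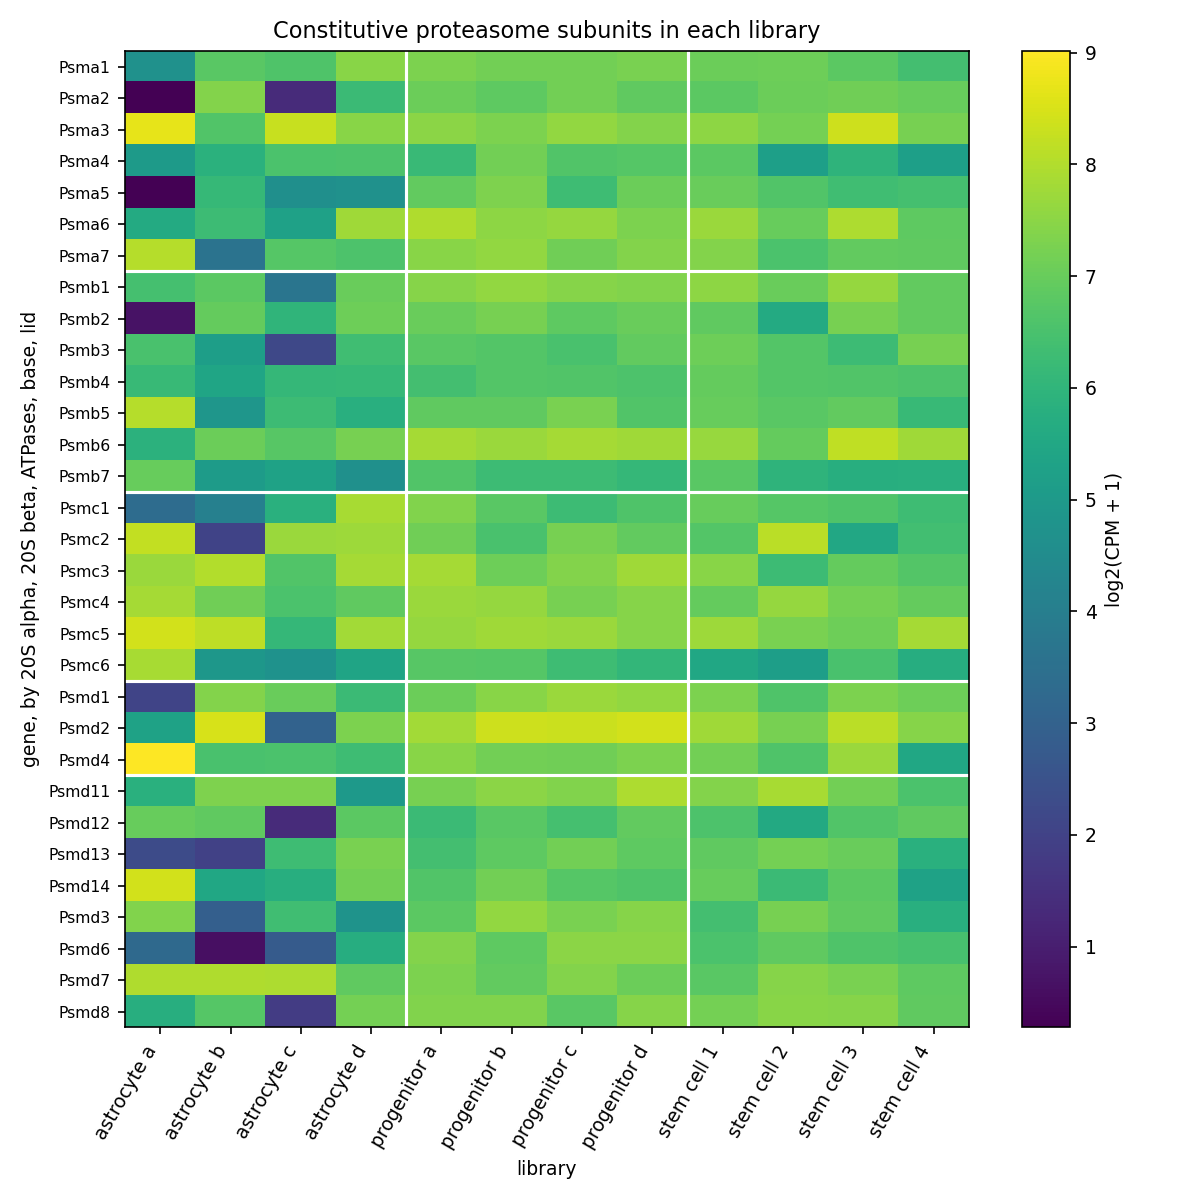
Heat map of log2(CPM + 1) for the 31 core subunits (rows, grouped by role with white lines) in the 12 libraries (columns, grouped by cell type). Progenitor columns are even, with between-gene SDs of 0.443 to 0.517, whereas the columns of astrocytes a, b and c hold dark cells, such as Psma2 at 0.213 CPM in astrocyte a.

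Levels of the subunits were spread most widely within astrocyte libraries. Within a library, the SD of log2(CPM + 1) over the core subunits was 0.443 to 0.517 in progenitors, 0.468 to 0.708 in stem cells, and 2.58, 1.95, 1.94 and 0.971 in astrocytes a to d. No core subunit had fewer than 50 counts in any progenitor or stem cell library, but 7, 4 and 6 had so few in astrocytes a, b and c, and none in astrocyte d. Psma2, a subunit of the alpha ring, had 1, 926, 8 and 368 counts in the 4 astrocyte libraries. Psma3, another subunit of that ring, had 1936, 536, 1583 and 858. The pair therefore changed order from library to library, with Psma2 the lower in astrocytes a, c and d and the higher in astrocyte b. Psmd4 and Psmd1, which encode a ubiquitin receptor and a scaffold of the 19S base, had 517 and 3.19 CPM in astrocyte a but 90.0 and 166 CPM in astrocyte b. In progenitors the same genes kept to 137 to 175 CPM and 131 to 205 CPM. The neuron marker sum was 5310, 2020, 1930 and 622 CPM in astrocytes a to d and the sum of 8 oligodendrocyte markers was 3200, 1380, 618 and 337 CPM, in the same order as the between-subunit SDs. The study also found the fewest transcripts passing its coverage filter in astrocytes. The part of neurons, oligodendrocytes or cDNA quality in this spread was not tested.

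Between libraries of one cell type, the same contrast was seen gene by gene. The ratio of the highest to the lowest of the 4 libraries, in CPM, had a median over core subunits of 9.42 in astrocytes, 1.5 in progenitors and 1.97 in stem cells. In astrocytes 15 of 31 subunits spanned more than 10-fold and 25 more than 3-fold, with Psma2 the widest at 794-fold and Psmb4 the tightest at 1.69-fold. In progenitors no subunit spanned 3-fold, and the widest, the ATPase Psmc1, spanned 2.13-fold. In stem cells 5 spanned more than 3-fold, the widest being the ATPase Psmc2 at 6.16-fold. Genes at large were also less reproducible in astrocytes. The median SD of log2(CPM + 1) between libraries was 1.46, 0.262 and 0.434 for core subunits in astrocytes, progenitors and stem cells, against 1.52, 0.519 and 0.771 for the 16119 genes that reached 10 counts in 4 or more libraries. Core subunits lay below the general median in progenitors and stem cells and near it in astrocytes. They were also more abundant than the general median, which was 19, 21 and 16.9 CPM, and the part of abundance in this was not tested.

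**Figure D2:**
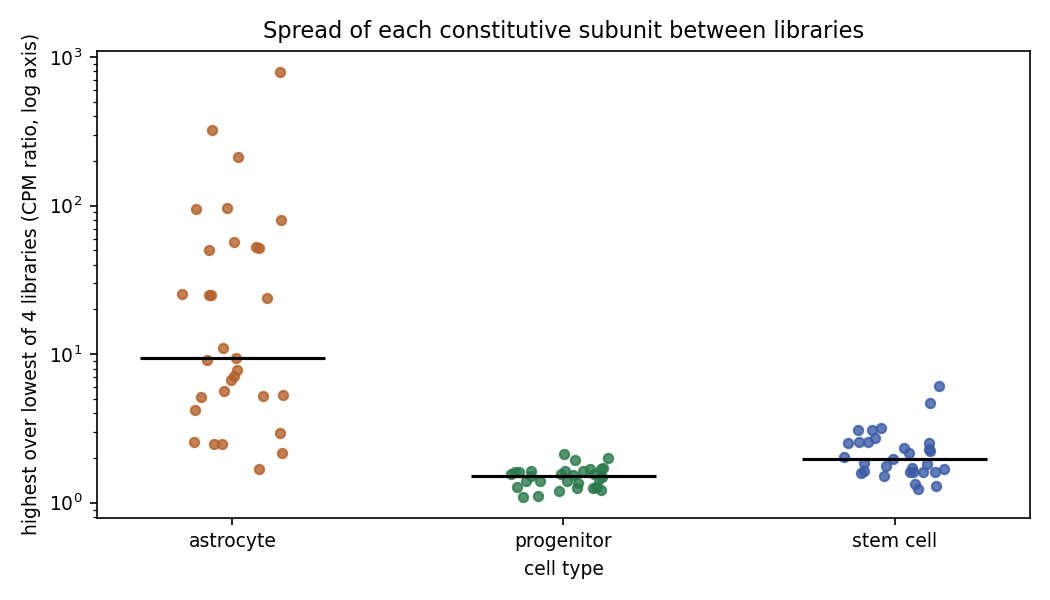
Ratio of the highest to the lowest CPM among the 4 libraries of a cell type (y axis, log scale) for each of the 31 core subunits (points), with the median as a bar. Medians are 9.42 in astrocytes, 1.5 in progenitors and 1.97 in stem cells, and the highest point is Psma2 in astrocytes.

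Per length, measured as mean CPM over the 12 libraries per kilobase of merged exons, the levels within a role differed by several-fold. The highest and lowest were 126 for Psma6 and 28.5 for Psma2 in the alpha ring, 124 for Psmb5 and 20 for Psmb7 in the constitutive beta ring, and 146 for Psmc5 and 21.6 for Psmc6 among the ATPases. Psmd4 had 55.7 and Psmd1 18.6 in the rest of the base, where Psmd2 was the highest in progenitors (74.7) and in stem cells (50.3) and Psmd4 in astrocytes (69.1), with most of it in astrocyte a. In the lid Psmd7 had 73.3 and Psmd3 22.0, and the lowest differed between cell types. The choice of transcript length moved this order. With the principal transcript in place of merged exons, the highest beta gene was Psmb6 at 225 and the highest alpha gene Psma7 at 150. The lowest lid gene was then Psmd13 at 47.6. Psmb7, Psma2, Psmc5, Psmc6, Psmd4, Psmd1 and Psmd7 kept their places. On this scale Psmd4, and not Psmd2, was the highest in the rest of the base in every cell type. It had 146 in astrocytes, 115 in progenitors and 91.9 in stem cells.

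The comparison of astrocytes with progenitors sets cells with GLAST alone against cells with the reporter alone, and the progenitor libraries also hold the oligodendrocyte precursor and mural cell markers given above, whose part in the differences was not tested. Both proteasome genes called were lower in astrocytes, and both entered the test through progenitors only. edgeR's quasi-likelihood test called 2 of the 47 proteasome genes tested at an adjusted p under 0.05, the inhibitor Psmf1 and the immunosubunit Psmb8. Of all 14806 genes tested, 8.63% were called and 6.18% were called lower in astrocytes. At an unadjusted p under 0.05 there were 7 of 47 proteasome genes (14.9%), against 18.9% of all genes, and DESeq2 called 5 (Psmf1, Psme3, Psmg4, Psmd6 and Psmb8), against 16.4%. A share near or under the background is not a result about the proteasome as a group. Of the 47 genes, 37 had a negative and 10 a positive log2 fold change, with a median of -0.59 beside 0.03 for all genes. Over the 48 genes with counts, tested or not, the median log2 ratio of mean CPM, with 1 CPM added to each, was also -0.59. In 10 genes every astrocyte library lay below every progenitor library, as in 15.2% of all genes, and in none above. The sign held under each scaling, with medians of -0.56 with median-of-ratios factors and -1.05 with library totals alone, where the median of all genes was 0.08 and -0.43.

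By role, all 7 constitutive beta genes had a negative log2 fold change in astrocytes against progenitors, between -1.05 and -0.22, and none was called. The 6 ATPases were split, 3 and 3, between -0.5 and 0.52. In the lid 6 of 8 were negative, between -3.27 for Psmd6 and 0.58 for Psmd7 overall. Psmb4, a beta subunit, had the tightest levels in astrocytes, with 70.7, 41.8, 67.8 and 68.4 CPM, against 83.2, 102, 99.7 and 93.4 CPM in progenitors and 122, 101, 99.3 and 94.7 CPM in stem cells. Astrocytes were thus below the other cell types in every library, with log2 fold changes of -0.6 (SE 0.45, edgeR adjusted p = 0.55) against progenitors and -0.75 (SE 0.5, adjusted p = 0.72) against stem cells.

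**Figure D3:**
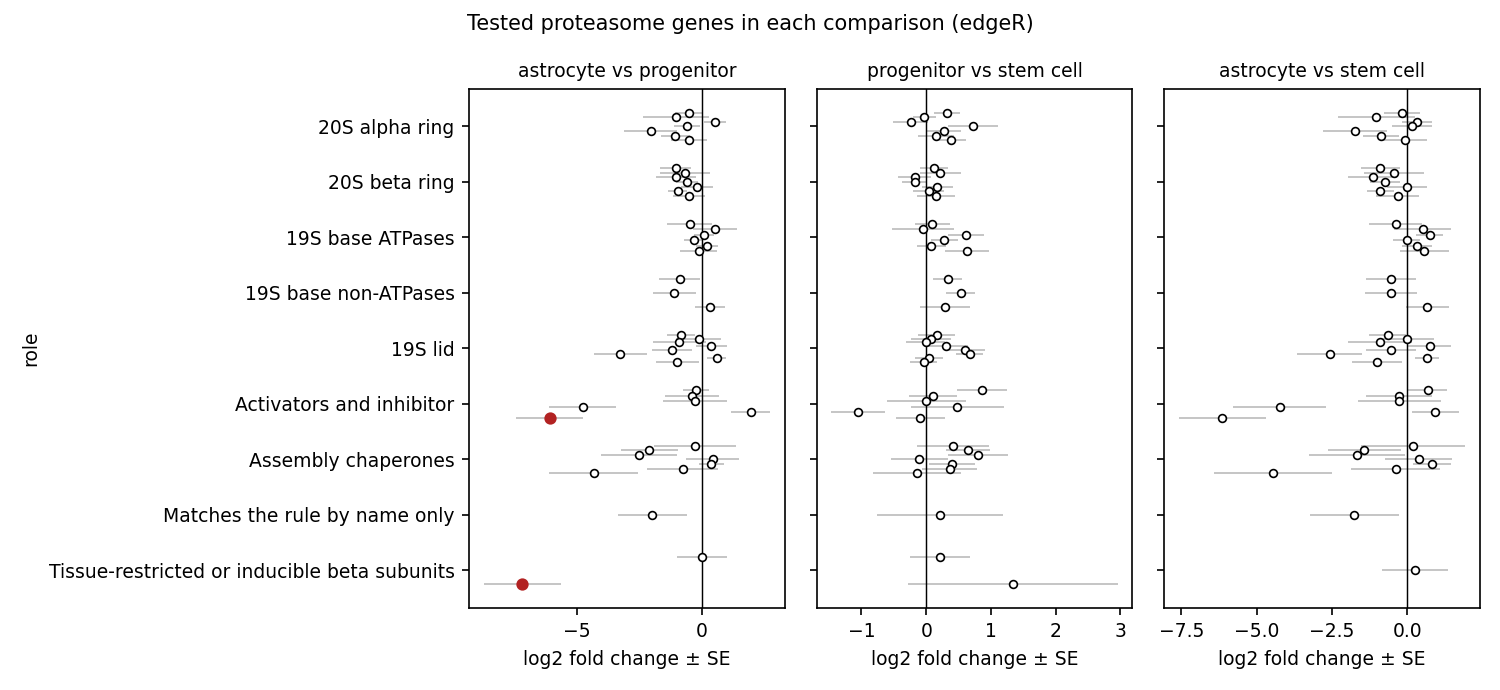
log2 fold change with its SE from edgeR (x axis, a separate scale in each panel) for each tested proteasome gene, by role (y axis), in the 3 comparisons. Filled red points passed an adjusted p of 0.05, which held for Psmf1 and Psmb8 in astrocytes against progenitors and for no gene in the other panels.

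Psmf1 encodes PI31, a protein that inhibits the isolated 20S core and binds its alpha ring. The gene lies on the minus strand of chromosome 2, at chr2:151715812-151744186 (GRCm38), in 8 merged exons, and overlaps no other annotated exon. Its counts were 0, 1, 2 and 7 in astrocytes, 496, 506, 270 and 464 in progenitors, and 576, 225, 259 and 137 in stem cells. No astrocyte library came near the lowest library of either other cell type. Mean levels were 0.502 ± 0.639 CPM (SD, n = 4) in astrocytes, 35.3 ± 7.72 in progenitors and 36.6 ± 15.3 in stem cells. Psmf1 was lower in astrocytes than in progenitors by a log2 fold change of -6.09 (SE 1.33, edgeR adjusted p = 0.018). It passed the count filter of that comparison through progenitors only. The call was kept in all 6 alternatives with all libraries in which the gene could be tested (adjusted p 2.1e-10 to 0.046), and was lost, at 0.053, 0.051 and 0.058, without progenitor b, c or d. Against stem cells, through which alone it passed the filter there, the log2 fold change was -6.14 (SE 1.45, adjusted p = 0.098), with adjusted p of 8.3e-07 to 0.16 over the alternatives with all libraries. Progenitors and stem cells differed by -0.09 (SE 0.38, adjusted p = 0.94).

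The sequences before the starts of Psmf1 and Psmb8 are shown because edgeR called both genes, beside those of Psmb5 and Psmb6, which encode constitutive sites. Each is the 250 bases upstream of the RefSeq start (GRCm38.p6), 5′ to 3′ on the gene's strand, in lower case. Those of Psmf1 and Psmb8 lie within the span of the GENCODE gene, which starts further upstream, and that of Psmb5 overlaps it at the end. Capitals mark matches, on either strand, to the antioxidant response element core TGANNNNGC, the CCAAT box, the GC box GGGCGG, the interferon gamma activated site TTCNNNGAA and the interferon response half-sites GAAANNGAA.
Psmf1 upstream, chr2:151741311-151741560, minus strand: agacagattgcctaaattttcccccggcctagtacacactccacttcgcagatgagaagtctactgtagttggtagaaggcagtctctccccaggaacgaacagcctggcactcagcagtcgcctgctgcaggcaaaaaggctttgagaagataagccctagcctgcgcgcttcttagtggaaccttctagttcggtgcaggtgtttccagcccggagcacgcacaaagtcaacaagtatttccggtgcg
Psmb8 upstream, chr17:34197945-34198194, plus strand: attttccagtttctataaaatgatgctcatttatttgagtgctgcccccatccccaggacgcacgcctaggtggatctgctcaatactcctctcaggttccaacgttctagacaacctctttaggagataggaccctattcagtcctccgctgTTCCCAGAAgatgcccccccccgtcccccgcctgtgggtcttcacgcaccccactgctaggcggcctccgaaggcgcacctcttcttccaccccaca
Psmb5 upstream, chr14:54617996-54618245, minus strand: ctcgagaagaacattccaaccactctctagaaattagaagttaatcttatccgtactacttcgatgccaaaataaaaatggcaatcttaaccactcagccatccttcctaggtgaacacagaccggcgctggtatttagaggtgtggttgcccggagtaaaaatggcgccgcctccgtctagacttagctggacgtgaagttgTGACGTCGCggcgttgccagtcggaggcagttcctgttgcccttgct
Psmb6 upstream, chr11:70525107-70525356, plus strand: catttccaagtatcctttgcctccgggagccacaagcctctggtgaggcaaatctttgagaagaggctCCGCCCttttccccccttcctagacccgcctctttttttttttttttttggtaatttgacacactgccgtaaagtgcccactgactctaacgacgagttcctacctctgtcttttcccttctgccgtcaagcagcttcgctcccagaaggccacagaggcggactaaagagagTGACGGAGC
None of these motifs was found before Psmf1. Psmb8 had an interferon gamma activated site from base -97 to -89, counted from the start, and a TATA box, not in capitals, from -237 to -232. Psmb5 and Psmb6 had an antioxidant response element core, at -47 to -39 and at -9 to -1, and Psmb6 also had a GC box on the other strand at -182 to -177.

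Among the 42 proteasome genes with a RefSeq upstream sequence, the same motifs were about as frequent as elsewhere, except for the GC box. GGGCGG was found before 22 of 42 genes (52.4%), against 35.4% of all 27025 genes. TGANNNNGC was found before 17 (40.5%), against 38.7%, and CCAAT before 15 (35.7%), against 37.5%. TTCNNNGAA occurred before Psmb8 and Psmg1 (4.76%), against 8.13%, GAAANNGAA before 3 genes (7.14%), against 8.18%, and the TATA box TATAAA before 4 (9.52%), against 14.3%. The sequences before proteasome genes had a median GC content of 57.6%, against 52.4% of all 32851 upstream sequences. The part of GC content in the share of GC boxes was not tested. These are matches of letters and not measured binding.

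After Psmb8 and Psmf1, Psme3 and Psmd6 had the smallest p in astrocytes against progenitors. Psme3 encodes PA28 gamma, a nuclear activator of the 20S core, and lies at chr11:101316213-101323537 on the plus strand. Its counts were 1, 18, 1 and 1 in astrocytes, 203, 385, 273 and 434 in progenitors, and 20, 193, 255 and 89 in stem cells. All astrocyte libraries were below all progenitor libraries in CPM, while the highest astrocyte, b at 3.29 CPM, was above stem cell 1 at 2.05 CPM. The log2 fold change was -4.76 (SE 1.34, edgeR adjusted p = 0.056) against progenitors and -4.24 (SE 1.55, adjusted p = 0.35) against stem cells, and neither passed the threshold. The first passed it without astrocyte b, at -6.96 (adjusted p = 0.019), with library totals (0.041), with DESeq2 (7.5e-05) and in the fit of all 12 libraries (0.035). Psme3 was 0.48 (SE 0.72, adjusted p = 0.78) on the log2 scale between progenitors and stem cells.

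Psmd6, the lid subunit also called Rpn7, lies at chr14:14112174-14120984 on the minus strand. It had 8.52, 0.548, 5.93 and 51.7 CPM in astrocytes, 168, 115, 178 and 180 CPM in progenitors and 92.9, 117, 95.6 and 87.7 CPM in stem cells. Astrocytes did not overlap either cell type, and progenitor b lay among the stem cells. The log2 fold change was -3.27 (SE 1.06, edgeR adjusted p = 0.1) against progenitors and -2.58 (SE 1.08, adjusted p = 0.45) against stem cells. The first passed the threshold without astrocyte d, at -5.02 (adjusted p = 0.021), with DESeq2 (adjusted p = 0.013) and in the fit of all 12 libraries (adjusted p = 0.04).

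**Figure D4:**
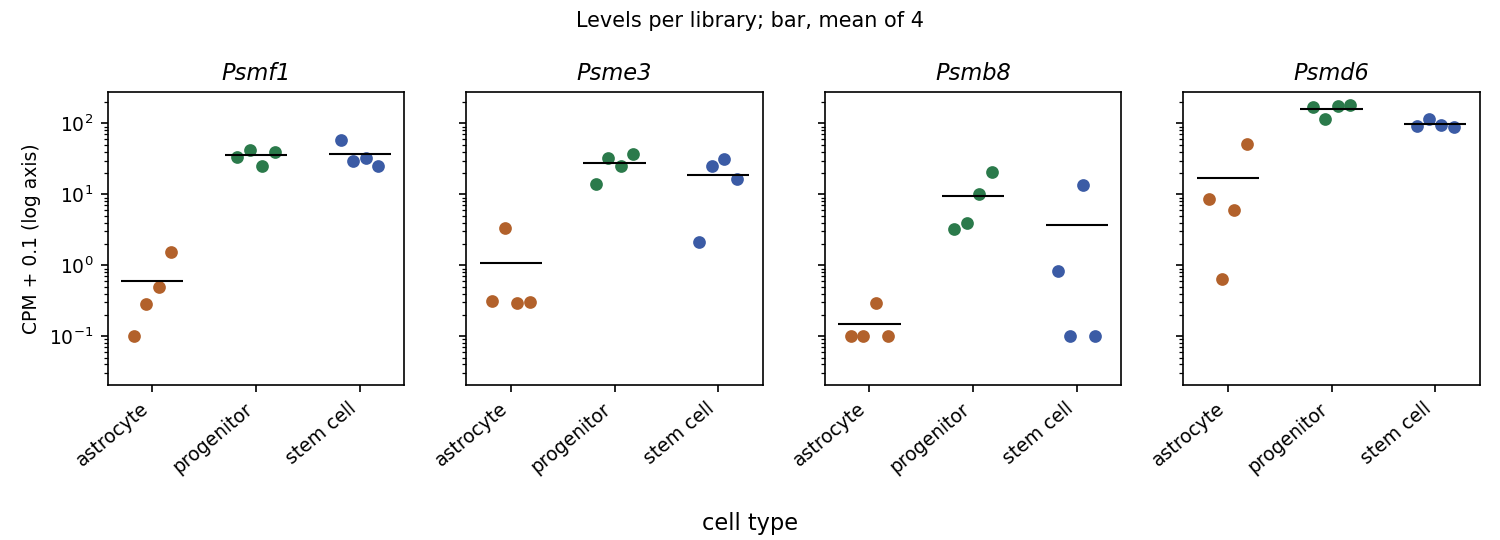
CPM + 0.1 (y axis, log scale) of Psmf1, Psme3, Psmb8 and Psmd6 in each library (points), by cell type, with the mean of 4 libraries as a bar. Psmf1 and Psmd6 in all 4 astrocyte libraries lie below the other cell types, whereas Psme3 and Psmb8 in stem cells overlap with astrocytes.

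Progenitors and stem cells share the reporter and differ in GLAST, and the oligodendrocyte precursor and mural cell markers differ between them too, with a part that was not tested. Proteasome genes showed small differences of mostly positive sign, and none was called by edgeR among 47 tested, whereas 8.6% of all 15427 genes were. At an unadjusted p under 0.05 there were 4 (8.51%), against 21.2% of all genes, and DESeq2 called only Psmd6, against 15.5%. In all, 35 genes were higher and 12 lower in progenitors by sign, with a median log2 fold change of 0.21 beside 0.04 for all genes. Without stem cell 4 it was 0.11 beside 0.1. Psma1 was the one proteasome gene whose progenitor libraries, at 141 to 155 CPM, all lay above the stem cell libraries, at 83.8 to 135 CPM, and 11.8% of all genes were so placed. It was named after its values were seen. The median SE was 0.31 for proteasome genes and 0.65 for all genes. The size depended on the scaling. With library totals alone the median was 0.52 beside 0.37 for all genes, and 2 genes, Psmd2 and Psmd6, were called. Without the count filter the median was 0.23 and that of all genes 0.25.

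Among single genes, Psmd6 had the smallest p, with a log2 fold change of 0.67 (SE 0.21, edgeR adjusted p = 0.087). It was called with DESeq2 (adjusted p = 0.021) and without progenitor b (0.82, adjusted p = 0.048). Psmd2, a scaffold of the base like Psmd1, had 225, 328, 315 and 338 CPM in progenitors and 220, 148, 274 and 170 CPM in stem cells. Its log2 fold change was 0.53 (SE 0.23, adjusted p = 0.22). Psme1, PA28 alpha, had 72.8, 133, 79.0 and 72.6 CPM in progenitors and 36.2, 28.9, 82.7 and 43.6 CPM in stem cells, with stem cell 3 inside the progenitor range (0.86, SE 0.38, adjusted p = 0.22). In the other direction, Psma3 was at -0.24 (SE 0.27, adjusted p = 0.7) and Psmb4 at -0.18 (SE 0.19, adjusted p = 0.68), and the activator Psme4 is described below.

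Astrocytes and stem cells share GLAST and differ in the reporter. Here edgeR called none of the 46 proteasome genes tested, and 0.0468% of all 12831 genes, or 6. At an unadjusted p under 0.05 there were 4 proteasome genes (8.7%), against 9.55% of all genes. DESeq2 called 2, Psmf1 and Psme3, against 4.95%. By sign 15 genes were higher and 31 lower in astrocytes, with a median log2 fold change of -0.36 beside 0.14 for all genes. It was -0.2 beside 0.15 without stem cell 1, -0.23 beside 0.04 without astrocyte c and -0.54 beside 0.04 without astrocyte d. In 5 genes, Psma5, Psmb4, Psmd6, Psmf1 and Psmg4, every astrocyte library lay below every stem cell library, as in 6.28% of all genes, and in none above. Psma5 and Psmg4 were named after their values were seen. The median SE was 0.83, close to that in astrocytes against progenitors and more than that between progenitors and stem cells. The genes with the smallest p on the higher side were Psmg2 (0.81, SE 0.64, adjusted p = 0.78), Psmc3 (0.73, SE 0.45, adjusted p = 0.7) and Psmd7 (0.65, SE 0.41, adjusted p = 0.71), and none passed the threshold. Both comparisons with astrocytes use the same 4 astrocyte libraries, so their agreement is not independent.

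The immunosubunits were a minor part of the catalytic beta genes in all cell types, and the part varied most in astrocytes. Psmb8 lies at chr17:34197721-34201454 on the plus strand, and 14.73% of its exonic bases overlap Gm20496, which unstranded counting cannot separate. Its counts were 0, 0, 1 and 0 in astrocytes, 46, 46, 107 and 240 in progenitors, and 7, 0, 109 and 0 in stem cells. It was detected in every progenitor library and mainly in stem cell 3 among the stem cells. Astrocytes were at the floor of 3 counts per library. By counting error alone, Psmb8 was at least 15.7-fold lower there than in progenitors, or at least 9.41-fold without progenitor d. This bound does not cover the dropout of signal that the study describes. Psma2, for example, had 1 and 8 counts in astrocytes a and c and 926 in astrocyte b. Against the mean of the stem cells the bound was 6.0-fold, and it rested on stem cell 3, without which the mean, 0.239 CPM, was under the floor of 0.598 CPM. edgeR gave a fitted log2 fold change of -7.18 (SE 1.55, adjusted p = 0.018) against progenitors, where the gene passed the filter through progenitors only. The call was lost without the count filter (adjusted p = 0.087), in one fit of all 12 libraries (adjusted p = 0.068) and without progenitor c (adjusted p = 0.051). The summed CPM of 10 microglia markers was 5.76 to 18.4 in progenitors, 11.7 to 318 in astrocytes and 25.8 to 80.1 in stem cells, while 5 of the 10 had no count in any progenitor library. Over progenitors a to d, Psmb8 had 3.15, 3.84, 9.89 and 20.6 CPM, the microglia sum was 18.4, 14.9, 13.4 and 5.76 CPM, and the sum of 8 endothelial markers was 28, 38.8, 37.6 and 77.7 CPM. In stem cell 3, which held most of the Psmb8 of stem cells, the endothelial sum was 0.751 CPM. The part of either cell type in the Psmb8 counts was not tested.

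Psmb9 had no count in astrocytes, 1, 29, 0 and 25 counts in progenitors, and 0, 83, 2 and 0 counts in stem cells, and was too low to be tested. Stem cell 2, with 83 counts, also had the highest endothelial sum, 207 CPM against 0.751 to 14.3 in the other stem cell libraries, whose part was not tested. Psmb10 had 28.1, 59.4, 32.8 and 1.02 CPM in astrocytes, 24.2, 30.8, 28.2 and 38.8 CPM in progenitors and 16.3, 18.2, 19.9 and 47.4 CPM in stem cells, and the groups overlapped. The constitutive partners were higher in most libraries. Psmb5 had 265, 28.1, 76.2 and 54.9 CPM in astrocytes and 70.8 to 153 CPM elsewhere, and Psmb6 had 59.0, 133, 107 and 147 CPM in astrocytes against 205 to 227 CPM in progenitors and 123 to 286 CPM in stem cells. Psmb7 had 127, 32.7, 38.5 and 24.3 CPM in astrocytes and 53.5 to 109 CPM elsewhere.

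The immunosubunit share is the share of Psmb8, Psmb9 and Psmb10 in the counts per kilobase of merged exons of these 6 genes. It was 4.34%, 23.7%, 11.2% and 0.407% in astrocytes, 5.12%, 7.06%, 5.85% and 10.6% in progenitors, and 3.4%, 6.26%, 4.96% and 11.6% in stem cells. The means were 9.91% ± 10.2 (SD, n = 4), 7.16% ± 2.43 and 6.56% ± 3.56. Two-sided exact permutation tests gave p = 0.77 for the difference of 2.75 points between astrocytes and progenitors, p = 0.77 for 0.603 points between progenitors and stem cells and p = 0.66 for 3.35 points between astrocytes and stem cells (adjusted p = 0.77 for each). The differences were smaller than the spread between libraries, and the comparison with astrocytes changed sign without astrocyte b, to -1.85 points against progenitors and -1.24 against stem cells. On the same scale, each immunosubunit was also set beside its constitutive partner. Of its sum with Psmb7, Psmb10 was 7.78% to 78.5% in astrocytes, 33.1% to 53.3% in progenitors and 23.1% to 63.4% in stem cells. Psmb10 exceeded Psmb7 on this scale in astrocytes b and c, progenitor d and stem cell 4. Psmb8 was at most 5.18% of its sum with Psmb5, and Psmb9 at most 4.29% of its sum with Psmb6. The choice of length mattered here too. Per kilobase of principal transcript, and in CPM, Psmb10 exceeded Psmb7 in astrocyte b only.

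**Figure D5:**
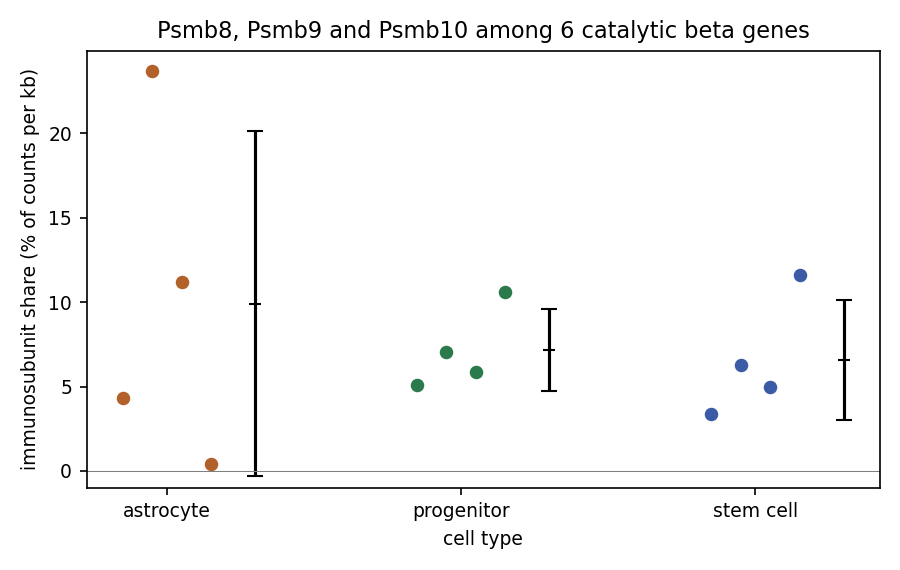
Share of Psmb8, Psmb9 and Psmb10 in the counts per kilobase of 6 catalytic beta genes (y axis, percent) in each library (points), with the mean and SD of 4 libraries in black beside them, by cell type. Astrocytes span 0.407% to 23.7% and cover the range of the other cell types.

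The activators of the 20S core did not move together. Psme4, which encodes PA200, a nuclear activator linked to histone turnover, was the only one with a positive log2 fold change in astrocytes against progenitors. It had 23.2, 231, 272 and 45.7 CPM in astrocytes, 28.3, 40.3, 29.3 and 52.4 CPM in progenitors and 53.7, 87.2, 128 and 34.7 CPM in stem cells. Astrocytes b and c were above all other libraries, astrocyte a was below them all, and astrocyte d lay within the range of the other cell types. Its log2 fold change was 1.95 (SE 0.78, edgeR adjusted p = 0.2) against progenitors, 0.92 (SE 0.78, adjusted p = 0.8) against stem cells, and -1.05 (SE 0.42, adjusted p = 0.18) in progenitors against stem cells. Without astrocyte a the first became 2.31 (adjusted p = 0.043).

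Psme1 and Psme2 encode the alpha and beta chains of PA28, the activator that interferon induces. Psme1 had 121, 41.5, 55.7 and 87.6 CPM in astrocytes, within the range of the other libraries. Psme2 had 1, 275, 310 and 367 counts in astrocytes, so that astrocyte a was nearly without it, and at least 201 counts in every other library. Psme2b is a near copy of Psme2 in 1 exon, with 99.4% identity over 794 aligned bases. Its counts were 13.1% to 20.9% of those of Psme2 in the 11 libraries other than astrocyte a, and reads of the pair may have been assigned to either gene.

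Several assembly chaperones were unevenly detected in astrocytes, but Psmg2 was not. Psmg2, which pairs with Psmg1 to build the alpha ring, had the highest level per kilobase of merged exons, 36.3, with 432, 415, 579 and 201 counts in astrocytes. Psmd9, a chaperone of the ATPases, had the lowest, 4.85. Per kilobase of principal transcript the lowest was Psmd5, at 10.2. Psmd9 had 1, 201, 0 and 28 counts in astrocytes and at least 92 in every other library, and 25.51% of its exonic bases overlap Gm26745. Psmg4, another chaperone of the alpha ring, had 0, 0, 0 and 18 counts in astrocytes and 30 to 330 elsewhere. Of 7 chaperones, 5 had a negative log2 fold change in astrocytes against progenitors and none was called. In progenitors against stem cells 5 were positive and none was called. Psmc3ip had 0, 19, 34 and 18 counts in astrocytes, 25 to 381 in progenitors and 7 to 148 in stem cells.

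Other genes of the pathway were followed in a list of 38, of which 37 were tested. In astrocytes against progenitors 0 were called higher and 3 lower, near the 8.63% of all genes called there. Ubb, which encodes polyubiquitin, had 1390, 673, 540 and 1390 CPM in astrocytes, 2150, 2500, 2400 and 2900 CPM in progenitors and a mean of 1560 ± 183 CPM (SD, n = 4) in stem cells. Its log2 fold change in astrocytes against progenitors was -1.33 (SE 0.31, edgeR adjusted p = 0.023), and the call was lost when astrocyte b or any progenitor library was left out (adjusted p at most 0.079). The others were Irf1, an interferon-regulated transcription factor, and Erap1, a peptidase that trims peptides for antigen presentation. Both passed the count filter through progenitors only. Irf1 had 0, 0, 1 and 1 counts in astrocytes and 340 to 867 in progenitors. By counting error alone, which leaves out dropout of signal, Irf1 was at least 68.3-fold lower in astrocytes (edgeR adjusted p = 0.01). Without progenitor d this bound was 49.6-fold. Erap1 had 0, 0, 0 and 2 counts in astrocytes and 93 to 473 in progenitors. With the same limit, Erap1 was at least 48.0-fold lower in astrocytes (edgeR adjusted p = 0.016), or at least 40.6-fold without progenitor c. The Erap1 call was lost without progenitor c (adjusted p = 0.051). Both genes also had 138 or more counts in every stem cell library, against which neither was called (adjusted p = 0.092 for both). Irf1 and Erap1 come from 10 listed antigen presentation genes that interferon induces, whose signs against progenitors were mixed (median -0.41 over 9 tested). H2-K1 was higher in every astrocyte library than in every progenitor library (0.92, SE 0.39, edgeR adjusted p = 0.23). H2-D1 was lower in every one (-3.45, SE 1.49, edgeR adjusted p = 0.24).

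Between progenitors and stem cells 2 genes of the list rose in progenitors and 1 fell, near the 8.6% of all genes called there. Ubb was higher by a log2 fold change of 0.64 (SE 0.14, edgeR adjusted p = 0.02). Vcp, the unfoldase that delivers ubiquitylated proteins to the proteasome, was higher by 0.75 (SE 0.2, adjusted p = 0.043), with 562, 492, 510 and 469 CPM in progenitors and a mean of 295 ± 70.6 CPM (SD, n = 4) in stem cells. Nfe2l2, the factor that binds antioxidant response elements in oxidative stress, was lower by -1.37 (SE 0.24, adjusted p = 0.0071), with 60.1 to 65.6 CPM in progenitors against a mean of 157 ± 44.3 CPM in stem cells. Its call was kept in all 8 fits that left out a library. In one fit of all 12 libraries none of the 3 was called (adjusted p = 0.36, 0.45 and 0.86). The Vcp call was also lost without the count filter (adjusted p = 0.061) and when any library except stem cell 4 was left out (adjusted p at most 0.11), and the Ubb call without progenitor d (0.051) or stem cell 1 (0.057). No gene of the list was called in astrocytes against stem cells. Nfe2l1, the factor that raises proteasome genes when the proteasome is inhibited, had 11.9 ± 7.92, 18.6 ± 15.7 and 19.9 ± 16.9 CPM in astrocytes, progenitors and stem cells (SD, n = 4). Neither it nor the assembly factor Pomp nor the ubiquitin receptor Adrm1 was called in any comparison (edgeR adjusted p at least 0.63).

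Counts of some members may be shared with near-identical sequences elsewhere. A transcript of another locus with at least 95% identity over at least 200 bases was annotated for 10 of the 50 genes. Gm13835, a processed pseudogene, matches Psma3 with 100% identity over 665 bases and had 31.0% as many counts as Psma3 over the 12 libraries. A730017L22Rik and Gm14048, which match Psmd11, had 27.6% and 18.1% as many counts as Psmd11, and Gm12989 had 6.83% as many as Psma5. The levels of these genes are therefore uncertain, to an extent that was not measured. Psmf1, Psme3, Psmd6 and Psmb8 had no such copy.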

How the data were processed

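RNA of 50 sorted cells per library was amplified with SMARTer v4 and tagged with Nextera XT. The deposited values are counts of reads per gene, which the authors made by trimming with AdapterRemoval at a quality of 20, removing reads on ribosomal, mitochondrial and PhiX sequence, aligning to GRCm38 with HISAT2 2.0.6 and counting with featureCounts on GENCODE M14 without strand. No molecular identifiers are stated, so amplified copies were counted as reads, and intervals and floors cover counting error only. The study tested with DESeq2 after a coverage filter, CLEAR, which needs coverage per base and was not run here.

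Symbols and coordinates came from GENCODE M21 (GRCm38), matched for 50376 of 50600 identifiers. Each pair of cell types was fitted on its 8 libraries with edgeR 4.0.16 (R 4.3.3, TMM, quasi-likelihood test) on the genes that reached 10 counts in 4 or more libraries. P-values were adjusted by Benjamini-Hochberg across every gene tested, with a threshold of 0.05. DESeq2 1.42.0, other factors, filters, 1 fit of all 12 libraries, thinning and leaving out each library were the alternatives. CPM used TMM factors over 12 libraries. Exact permutation tests used scipy 1.17.1. A floor of 3 counts per library set the bounds on folds. The scripts were tested on simulated data. With low spread between libraries, every changed gene tested was recovered. With the spread of the data, 4 of 97 changes of 4-fold were recovered in astrocytes against progenitors. That number was 30 of 95 in progenitors against stem cells and 2 of 93 in astrocytes against stem cells. For changes of 16-fold the numbers were 27 of 96, 58 of 96 and 28 of 93. Genes that were not called may therefore still differ.

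Members and gene lists were chosen with earlier results of these data known. Genes named are those called in any comparison, the 3 with the smallest p in each direction, the catalytic beta genes, the activators and the inhibitor, the highest and lowest per length in each role, those mostly under 10 counts and called genes of the pathway list. The pathway list held 38 genes. Examples of spread, and Psma1, Psma5 and Psmg4, were chosen after their values were seen. Astrocyte and progenitor columns carry no replicate number, so their letters are names only. The study describes 4 biological replicates per cell type, each from 1 mouse brain. Whether a brain gave libraries of several cell types is not given in the sources used here.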

Additional observations from a re-analysis of the deposited data

Results flagged for a closer look

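In each cell type, a library was singled out where its gap to the nearest other library, over the range of the 4, exceeded Dixon's 95% critical value. The screen covered the proteasome genes named by the criteria above and measures such as the number of genes with at least 10 counts. It did not cover all 50 genes. Of 87 groups tested, 15 (17.2%) held such a library. Genes outside the screen also had libraries that stood apart. Examples are Psmd12 in astrocyte c (1.58 CPM, others 111 to 126) and Psmd5 in astrocyte d (56.4 CPM, others 0.988 to 7.88). Chance gives about 1 in 20 for independent normal values. CPM of genes in the same libraries, some near 0, need not behave so, and the excess was not tested. In astrocytes, library a was high for Psmb7 (127 CPM, others 24.3 to 38.5), Psmc6 (235 CPM, others 25.7 to 40.8) and Psmd4 (517 CPM, others 77.6 to 91.8). Astrocyte b was low for Psmb4 (41.8 CPM, others 67.8 to 70.7) and high for Psmd9 (36.7 CPM, others 0 to 5.72) and Psme3 (3.29 CPM, others 0.198 to 0.213). Astrocyte d was low for Psmd7 (116 CPM, others 246 to 252) and high for Psmd6 (51.7 CPM, others 0.548 to 8.52).

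In progenitors, library b was high for Psme1 (133 CPM, others 72.6 to 79.0). In stem cells, library 1 was high for Psmb7 (109 CPM, others 53.5 to 62.0), and each immunosubunit was high in a different library, Psmb9 in stem cell 2 (10.8 CPM, others 0 to 0.25), Psmb8 in stem cell 3 (13.6 CPM, others 0 to 0.718) and Psmb10 in stem cell 4 (47.4 CPM, others 16.3 to 19.9). Stem cell 3 was low for Psmc3ip (0.876 CPM, others 15 to 15.8). Stem cell 2 had 47 proteasome genes with at least 10 counts, and the others had 46 each, a tie that alone sets the ratio at its maximum.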

How the results depend on the processing

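The median over proteasome genes kept its sign in each comparison under all alternatives run. In astrocytes against progenitors it was -1.05 with library totals alone, an alternative chosen after seeing the data, and -0.84 with at least 10 counts required in every library. The number called there was 5 with DESeq2, 1 without a count filter, 0 of the 30 tested with 10 counts in every library (where Psmf1 and Psmb8 cannot enter), and 0 to 6 when a library was left out, with 0 without progenitor c, 1 without progenitor b or d, and 6 without astrocyte d. In progenitors against stem cells the median was 0.52 and the number called 2 with library totals, 1 were called with DESeq2 and 0 to 1 with a library left out (Psmd6, without progenitor b). In astrocytes against stem cells 2 were called with DESeq2 and 1, Psmf1, in the fit of all 12 libraries. Over all genes, calls in the 3 comparisons, in the order above, were 1278, 1327 and 6, but 2431, 2394 and 635 with DESeq2, 529, 1045 and 16 without a filter, 287, 1067 and 12 with 10 counts in every library, and 1385, 381 and 346 in the fit of all 12 libraries. The difference in immunosubunit share ranged over libraries left out from -1.85 (without astrocyte b) to 5.92 points for astrocytes against progenitors, from -0.543 (without progenitor d; -0.448 without stem cell 1) to 2.29 for progenitors against stem cells, and from -1.24 (without astrocyte b) to 6.52 for astrocytes against stem cells. In progenitors against stem cells the log2 fold change changed sign for Psma3 (0.1 with library totals, and -0.38 to 0.09 with a library left out, the highest without stem cell 3), Psmb4 (0.15 with library totals) and Psmf1 (0.26 with library totals, 0.0 with 10 counts in every library, and -0.22 to 0.24 with a library left out, at 0.07 without progenitor c and highest without stem cell 1). Except where the alternative itself uses fewer genes or libraries, the cause was not tested. No paired analysis was possible because the astrocyte and progenitor columns carry no replicate numbers. Thinning to the smallest library left the number of proteasome genes called at 2, 0 and 0.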
